A study of Homo sapiens with 6 samples.

Results

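Integrins are the receptors that tie a cell to its surrounding matrix. Each is a pair of 1 α and 1 β chain, and the pair decides which matrix protein is bound. Inside the cell, talin and kindlin bind the β tail and switch the receptor on, a complex of ILK, PINCH and parvin joins them, and kinases and actin-linking proteins assemble around them into a focal adhesion that carries force to the cytoskeleton. In hepatic stellate cells, the collagen-producing cells of the injured liver, integrins that contain the αv chain are known to release TGF-β from its latent form.

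The genes described here are 36 of the 22701 listed by symbol in the deposited FPKM table (fragments scaled to gene length and library total). They are 16 integrin chains and 20 genes of focal adhesion adaptors, kinases and actin linkers, called adaptors below. They were taken by symbol from a fixed list. All 36 symbols were found. The cells were LX-2, an established human hepatic stellate cell line. In all 6 libraries the cells had been given TGF-β, with a stated dose of 5 µg/mL. In 3 of them the cells had also been given 20 µM LIG (ligustilide, a phthalide of Angelica and Ligusticum roots), and these are called the LIG libraries. Polyadenylated RNA was sequenced, and the question was what LIG changes in TGF-β-treated cells. No library without TGF-β was analysed here. How long the cells were treated, and whether each library was a culture of its own, is not stated. The p-values therefore reflect the spread of these libraries, which may be technical. In bulk RNA, fewer expressing cells and less RNA per cell cannot be told apart.

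Library totals lay between 38401783 and 39260090 fragments. TGF-β replicate 2 and LIG replicate 3 stood apart from the other 4 libraries on the first principal component (55.1% of the variance). Of 13 stellate cell markers in the table, 11 had a mean of at least 1 FPKM, and DES and RGS5 did not. Among the 11, ACTA2 averaged 2.87 FPKM. COL1A2 had 0.67, 0.71 and 6.73 FPKM in TGF-β replicates 1, 2 and 3, an uneven group, and 5.08, 3.28 and 3.24 FPKM with LIG. Of 3 hepatocyte markers in the table, APOA1 and HNF4A were below 1 FPKM and SERPINA1 averaged 3.88 FPKM. The 5 endothelial markers and 8 of 9 leukocyte or macrophage markers were below 1 FPKM. The exception was CD68, which averaged 13.7 FPKM. Of 5 epithelial markers in the table, EPCAM and KRT19 were below 1 FPKM and the keratins KRT7, KRT8 and KRT18 were not. The 5 summed to between 371 and 406 FPKM with TGF-β and between 274 and 341 FPKM with LIG, and their part in the results below was not tested.

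The upstream regions of 3 members are shown, as the 250 bases before a RefSeq start on GRCh38.p14, read 5′ to 3′ on the gene's strand. ITGB5 (chr3:124901419-124901668, minus strand, 1 of several starts and the farthest upstream) is shown because its difference had the smallest adjusted p of the members. FLNA (chrX:154374635-154374884, minus strand) and ACTN1 (chr14:68977567-68977816, minus strand, 1 of 4 starts) are shown because they hold the letters of a CArG box, the site of the actin-responsive factor SRF. Capitals mark motif letters.
ITGB5: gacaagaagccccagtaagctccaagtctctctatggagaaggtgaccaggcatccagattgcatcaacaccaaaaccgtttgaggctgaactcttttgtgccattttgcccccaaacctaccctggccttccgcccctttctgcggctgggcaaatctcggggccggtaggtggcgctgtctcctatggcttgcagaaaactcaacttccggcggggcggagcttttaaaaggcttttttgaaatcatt
FLNA: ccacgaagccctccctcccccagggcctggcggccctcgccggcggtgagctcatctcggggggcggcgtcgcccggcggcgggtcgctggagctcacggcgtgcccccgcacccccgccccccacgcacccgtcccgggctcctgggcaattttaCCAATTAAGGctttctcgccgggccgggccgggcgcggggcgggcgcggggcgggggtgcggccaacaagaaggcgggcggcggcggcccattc
ACTN1: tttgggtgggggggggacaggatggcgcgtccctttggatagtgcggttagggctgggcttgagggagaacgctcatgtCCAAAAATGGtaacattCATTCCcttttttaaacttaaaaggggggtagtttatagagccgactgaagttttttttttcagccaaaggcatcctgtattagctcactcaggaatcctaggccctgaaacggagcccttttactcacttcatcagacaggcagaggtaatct
In FLNA the capitals are the CArG box, and in ACTN1 they are the CArG box followed by the TEAD letters on the other strand. The ITGB5 window has no capitals because none of the 4 motifs searched was in it, which says only that these letters are absent there.

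Windows were found for 29 of the 36 members (58 windows, since several genes have more than 1 start). Both strands were searched, and each motif was counted by itself whether or not it overlapped another. The CArG box was in 4 of the 58 windows (ACTN1, FLNA, ITGB6 and LPP), against 1.16% of all 35116 windows of the same length. The TEAD letters GGAATG were in 10 windows of 8 members (ACTN1, ITGA5, ITGA10, ITGB1, LPP, PXN, TNS1 and VCL), against 11.9% of all. The AP-1 letters TGANTCA were in 6 windows of ACTN4, BCAR1, LIMS1 and LPP, against 6.57% of all. The SMAD letters GTCTAGAC were in none of the 58, and in 0.182% of all. Windows of 1 gene can overlap, and these counts are descriptions.

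One β chain and a pair of α chains made up most of the integrin mRNA. The common β1 chain ITGB1, which pairs with most α chains, had 532, 529 and 522 FPKM with TGF-β and 533, 524 and 438 FPKM with LIG, each group given here and below in the order of its replicate numbers. Of these, LIG replicate 3 was the low one and the groups overlapped. ITGB1 made up 94.4 ± 0.33% (SD, n = 3) of the FPKM summed over the 6 β chains with TGF-β and 94.1 ± 0.13% (n = 3) with LIG. The sum of the 10 α chains was close in size to ITGB1, at 508 ± 33.4 and 507 ± 43.8 FPKM. ITGA3 and ITGA5 together made up 70.1 ± 0.53% of that sum with TGF-β and 69.5 ± 3.24% with LIG. FPKM is scaled to gene length, so levels of different genes can be set side by side, but only roughly. They depend on the gene model used, and in some libraries they also shifted with gene length (below). The ITGB1 transcript shares 609 bases at 100% identity with the processed pseudogene AC022149.1, so its value carries the uncertainty of shared reads.

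Among the α chains, ITGA3, a laminin receptor chain, had 194, 170 and 192 FPKM with TGF-β and 189, 195 and 176 FPKM with LIG. ITGA5, the chain of the classical fibronectin receptor, had 179, 156 and 177 FPKM with TGF-β and 169, 167 and 159 FPKM with LIG. The ranges of ITGA3 and ITGA5 over the 6 libraries overlapped, so their order is not fixed, and both lay above all other α chains. ITGAV, which binds RGD-containing ligands such as vitronectin and latent TGF-β, had 68.7, 67.5 and 70.5 FPKM with TGF-β and 73.1, 72.7 and 49.1 FPKM with LIG. In this gene LIG replicates 1 and 2 lay above and LIG replicate 3 below every TGF-β library. The laminin receptor chain ITGA6 had 31.97, 30.1 and 30.7 FPKM with TGF-β and 33.8, 34.0 and 26.8 FPKM with LIG, which is the same arrangement.

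**Figure D1:**
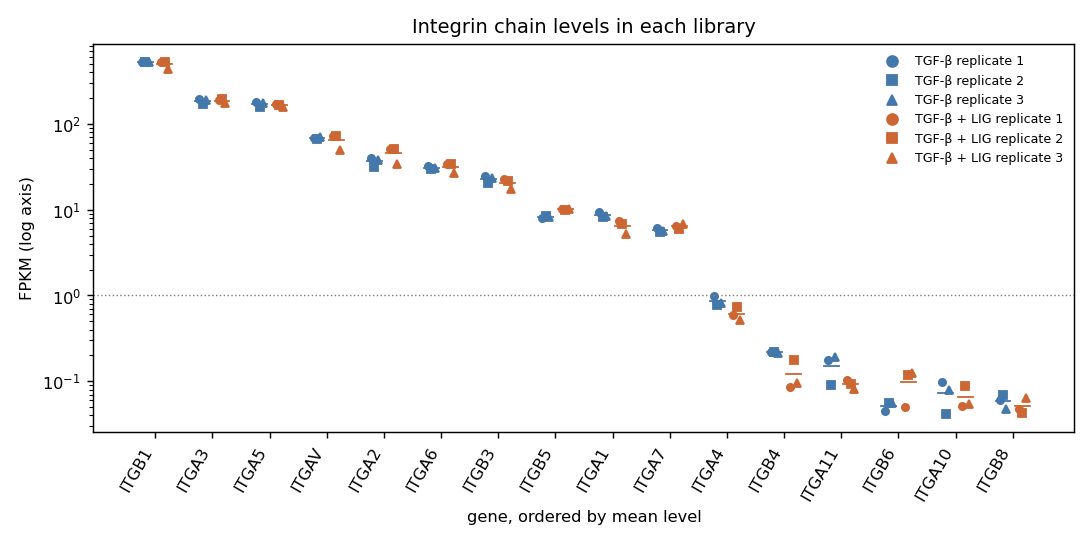
FPKM (log axis) of the 16 integrin chains in each library, ordered by mean level, with short lines for group means and a dotted line at 1 FPKM. ITGB1 lies highest at a mean of 513 FPKM over the 6 libraries, and 6 chains lie below the line.

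Of the partners for αv, ITGB3 averaged 22.8 ± 2.02 FPKM with TGF-β and 20.7 ± 2.79 with LIG, and ITGB5 8.22 ± 0.18 and 10.1 ± 0.19 FPKM. ITGB6 and ITGB8, the αv partners best known for TGF-β release, were nearly absent, at no more than 0.126 FPKM for ITGB6 and 0.070 FPKM for ITGB8 in any library. ITGB4, the hemidesmosome chain, reached at most 0.220 FPKM. The collagen receptor chains ITGA10 and ITGA11 stayed at or below 0.0973 and 0.189 FPKM. These 5 chains rest on 8 to 80 fragments per library. ITGA4, which binds VCAM1 and a spliced segment of fibronectin, had 0.990, 0.770 and 0.821 FPKM with TGF-β and 0.590, 0.743 and 0.515 FPKM with LIG. Its groups did not overlap, and with no filter on low values its limma adjusted p was 0.664. The groups of ITGB4 did not overlap either, at 0.219, 0.220 and 0.215 FPKM with TGF-β and 0.0867, 0.178 and 0.0965 FPKM with LIG. With no filter its limma adjusted p was 0.456. Over all genes tested, 6.73% did not overlap with LIG lower. These 6 chains did not reach the mean of 1 FPKM needed for testing, which left 10 of 16 chains and all 20 adaptors tested.

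No integrin chain and no adaptor passed the test of LIG against TGF-β (limma on log2(FPKM + 1), Benjamini-Hochberg adjusted over all 10695 genes tested, threshold 0.05). Over all genes 0.692% passed, 0.187% higher and 0.505% lower with LIG. At an unadjusted p under 0.05, 1 member was higher (ITGB5) and 3 were lower (ITGA1, FERMT2 and LIMS1), together 4 of the 30 tested, where 8.41% of all genes were counted, 4.2% higher and 4.21% lower. Voom on the recovered fragments also called 0 of the 30. The median log2 change was -0.02 over the 10 chains and -0.05 over the 20 adaptors, against 0.03 over all genes. Of the members, 12 of 30 had a change above 0, compared with 60.9% of all genes. The groups did not overlap in 2 tested chains (ITGB5 higher, ITGA1 lower) and in 4 adaptors (PXN higher, and FERMT2, LIMS1 and PDLIM5 lower). Of all genes tested, 15.8% did not overlap, 9.07% higher and 6.73% lower.

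Log2 changes of the 30 tested members ran from -0.38 (ITGA1) to 0.29 (ITGA2), with a median size of 0.09, against 0.07 over all genes tested. The 95% interval of the difference lay within 1.5-fold either way in 8 of 10 chains and 18 of 20 adaptors, against 10413 of 10695 genes tested, and reached further in ITGA1, ITGA2, TNS1 and LPP. These folds are on the log2(FPKM + 1) scale, which understates the change of low genes.

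**Figure D2:**
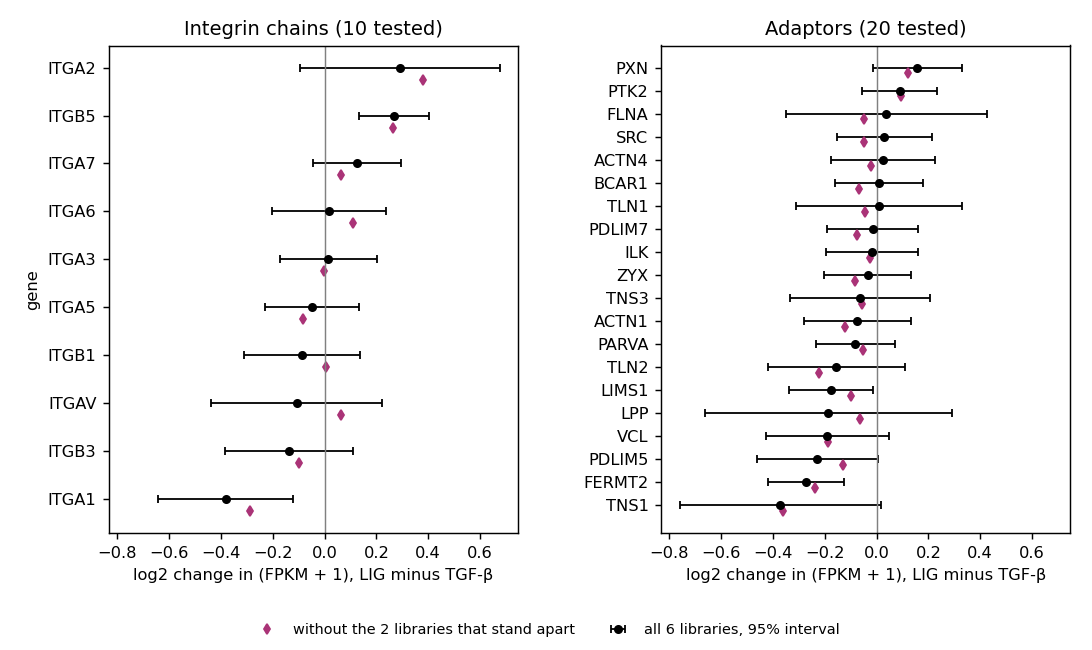
Log2 change in (FPKM + 1), LIG minus TGF-β, of the 30 tested members, with 95% intervals from all 6 libraries (black) and the value without TGF-β replicate 2 and LIG replicate 3 (diamonds). Intervals of ITGB5, ITGA1, FERMT2 and LIMS1 lie to one side of 0, and none of these genes passed after adjustment.

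Among the β chains, ITGB5 had the smallest adjusted p. It pairs with αv to bind vitronectin (chromosome 3, 124761948 to 124901418). ITGB5 had 8.01, 8.34 and 8.30 FPKM with TGF-β and 10.1, 9.89 and 10.3 FPKM with LIG. Every LIG library lay above every TGF-β library. The log2 change was 0.27 ± 0.06 (SE; limma adjusted p = 0.146, 95% interval 0.13 to 0.40). ITGB3, the other vitronectin receptor chain, had a log2 change of -0.14 ± 0.11 (limma adjusted p = 0.836), and its groups overlapped. ITGB1 had a log2 change of -0.09 ± 0.10 (limma adjusted p = 0.916, 95% interval -0.31 to 0.14). In GENCODE, 51.6% of the exon bases of ITGB3 are shared with another gene model on the same strand, so its value may be uncertain. The annotation behind the deposited values is not given, and the recovered length of ITGB3 was 5941 bases. The share in the gene models that were counted may therefore differ.

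The log2 changes of the collagen receptor chains ITGA1 and ITGA2 had opposite signs, and neither gene passed. ITGA1 (chromosome 5, 52787896 to 52959210) and ITGA2 (chromosome 5, 52989326 to 53094779) lie next to each other on the same strand. ITGA1, whose receptor favours basement membrane collagen IV, had 9.32, 8.22 and 8.50 FPKM with TGF-β and 7.42, 6.80 and 5.24 FPKM with LIG. The LIG libraries were all below the TGF-β libraries, and the log2 change was -0.38 ± 0.11 (limma adjusted p = 0.324). ITGA2, whose receptor favours fibrillar collagen, had 40.1, 31.2 and 38.2 FPKM with TGF-β and 51.7, 50.9 and 33.7 FPKM with LIG. Here LIG replicates 1 and 2 were the highest libraries while LIG replicate 3 lay among the TGF-β values. The log2 change of ITGA2 was 0.29 ± 0.17 (limma adjusted p = 0.749). Without both libraries that stand apart, a fit on 2 libraries per group picked by their values, it was 0.38 (limma adjusted p = 0.00103). That fit leaves out LIG replicate 3, the low LIG library of this gene, so its small p partly reflects the spread removed.

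The laminin receptor chain of muscle, ITGA7, had 6.14, 5.52 and 5.67 FPKM with TGF-β and 6.53, 5.91 and 6.76 FPKM with LIG, with overlapping groups (log2 change 0.13 ± 0.07, limma adjusted p = 0.753). ITGA3, ITGA5, ITGA6 and ITGAV had log2 changes from -0.11 to 0.02, each with limma adjusted p of at least 0.941. The sign of ITGA3, ITGA6, ITGAV and ITGB1 differed between alternatives.

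**Figure D3:**
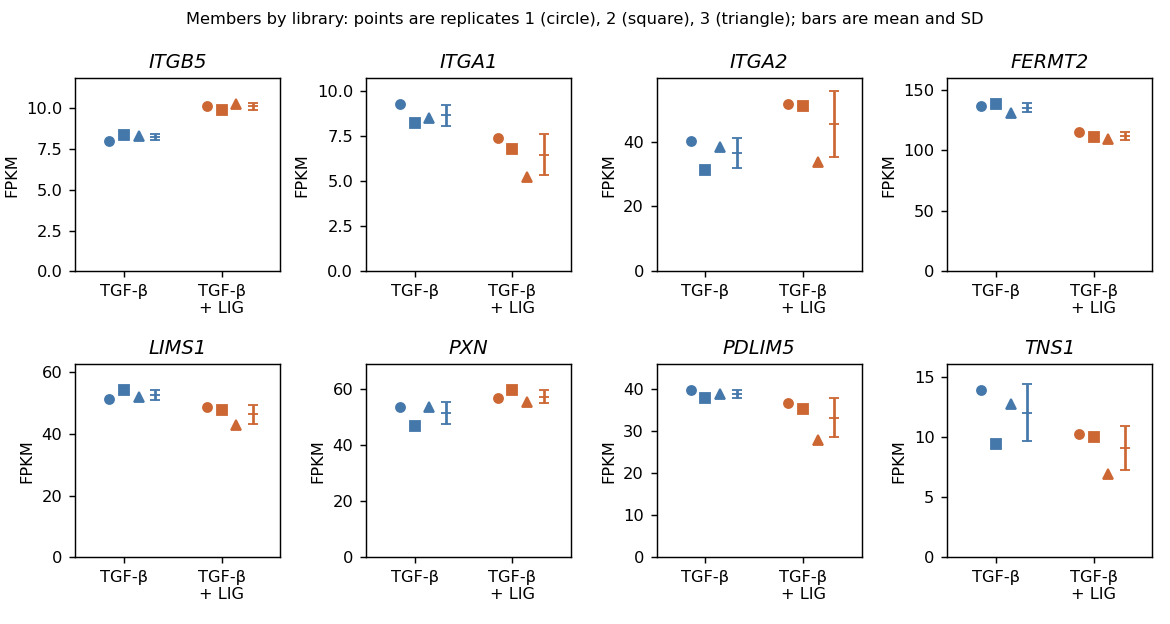
FPKM (linear axis from 0) of 8 members in each library, with group means and SD (n = 3). ITGB5 and FERMT2 show tight, separate groups (8.22 and 10.1 FPKM; 135 and 112 FPKM), while in ITGA2, TNS1 and PDLIM5 LIG replicate 3 lies below the other LIG libraries.

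The adaptors were on the whole abundant: their median level was 51.9 FPKM, against 8.89 FPKM over all genes tested. The α-actinins crosslink actin filaments, and ACTN1 was the highest of the list with 433, 369 and 426 FPKM with TGF-β and 397, 392 and 373 FPKM with LIG. The filamin FLNA, which crosslinks actin and binds β tails, had 315, 211 and 315 FPKM with TGF-β and 304.5, 305 and 244 FPKM with LIG. In both genes TGF-β replicate 2 was the lowest library, and the groups overlapped. ACTN4 had 177, 149 and 173 FPKM with TGF-β and 170, 175 and 161 FPKM with LIG.

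The LIM-domain proteins ZYX and PDLIM7, found on actin bundles at adhesions, followed ACTN4 by mean level, with FERMT2 between them. ZYX had 135, 135 and 131 FPKM with TGF-β and 123, 128 and 141 FPKM with LIG. PDLIM7 had 119.8, 120.5 and 120.5 FPKM with TGF-β and 110.1, 118 and 130.01 FPKM with LIG. In both, LIG replicate 3 was the highest library and LIG replicate 1 the lowest. The ranges of ZYX, FERMT2 and PDLIM7 over the 6 libraries overlapped between neighbours, and so did those of VCL and ILK.

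**Figure D4:**
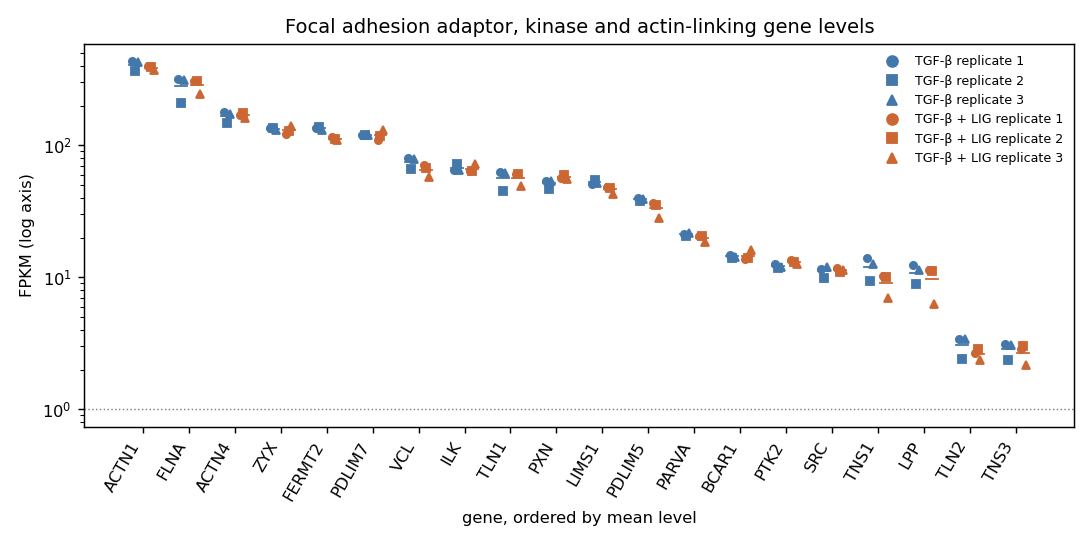
FPKM (log axis) of the 20 adaptors in each library, ordered by mean level, with short lines for group means. Means run from 398 FPKM for ACTN1 to 2.77 FPKM for TNS3, and TGF-β replicate 2 (blue square) and LIG replicate 3 (orange triangle) lie low in FLNA, TLN1, LPP and the tensins.

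Of the genes that activate integrins and hold the ILK complex, kindlin-2 had the smallest adjusted p among the adaptors. FERMT2 encodes kindlin-2, which binds β tails and acts with talin (chromosome 14, 52857268 to 52952435). It had 136, 139 and 131 FPKM with TGF-β and 115, 111 and 109 FPKM with LIG. The lowest TGF-β library lay well above the highest LIG library, and the mean differed by -17.4% with LIG. The log2 change was -0.27 ± 0.06 (SE; limma adjusted p = 0.184, 95% interval -0.42 to -0.13). LIMS1 encodes PINCH-1, a member of the ILK complex, and had 51.2, 54.4 and 52.1 FPKM with TGF-β and 48.7, 47.7 and 42.9 FPKM with LIG. The groups did not overlap (log2 change -0.18 ± 0.07, limma adjusted p = 0.532). The LIMS1 transcript shares 922 bases at 97.9% identity with LIMS3 and LIMS4, so its value carries the uncertainty of shared reads.

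ILK itself, a scaffold with a kinase-like fold, had 65.4, 72.2 and 64.8 FPKM with TGF-β and 64.0, 64.0 and 72.1 FPKM with LIG. TAF10, on the opposite strand, covers 68.1% of the exon bases of ILK in GENCODE. Neither the annotation behind the deposited values nor the use of strand in counting is given in the sources used here. PARVA, which encodes α-parvin, averaged 21.2 ± 0.51 FPKM with TGF-β and 19.97 ± 1.19 with LIG (log2 change -0.08 ± 0.07, limma adjusted p = 0.847). The main talin gene TLN1 had 63.0, 45.0 and 61.5 FPKM with TGF-β and 60.2, 60.4 and 49.1 FPKM with LIG, so the low library of each group set its spread. TLN2 averaged 3.08 ± 0.58 and 2.64 ± 0.27 FPKM (log2 change -0.16 ± 0.11, limma adjusted p = 0.822).

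Among the signalling genes, PXN, the scaffold paxillin, had 53.8, 46.9 and 53.5 FPKM with TGF-β and 57.0, 59.8 and 55.3 FPKM with LIG. The LIG libraries were all above the TGF-β libraries, by a log2 change of 0.16 ± 0.07 (limma adjusted p = 0.638). PTK2, which encodes focal adhesion kinase, had 12.7, 11.8 and 12.04 FPKM with TGF-β and 13.4, 13.2 and 12.5 FPKM with LIG, and only its lowest LIG library overlapped the TGF-β range (log2 change 0.09 ± 0.06, limma adjusted p = 0.811). The kinase SRC averaged 11.2 ± 1.05 FPKM with TGF-β and 11.4 ± 0.46 with LIG. The FAK and SRC substrate BCAR1 (p130Cas) averaged 14.4 ± 0.40 and 14.6 ± 1.247 FPKM. Neither of these 2 differed beyond its spread (limma adjusted p = 0.979 and 0.991).

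Of the tensins and actin linkers, TNS1 had the largest change on the log2 scale. Tensin-1, which ties β1 integrins of fibrillar adhesions to actin, had 13.9, 9.40 and 12.7 FPKM with TGF-β and 10.2, 10.02 and 6.94 FPKM with LIG. TGF-β replicate 2 lay below LIG replicates 1 and 2, so the groups overlapped (log2 change -0.37 ± 0.17, limma adjusted p = 0.611). Without both libraries that stand apart, a fit on 2 libraries per group picked by their values, the change was -0.36 (limma adjusted p = 0.00873). PDLIM5 had 39.9, 37.8 and 38.9 FPKM with TGF-β and 36.7, 35.2 and 27.9 FPKM with LIG, with no overlap (log2 change -0.23 ± 0.10, limma adjusted p = 0.592).

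Vinculin, VCL, which strengthens the talin to actin link under force, had 79.9, 66.2 and 78.5 FPKM with TGF-β and 71.3, 67.4 and 57.8 FPKM with LIG. TGF-β replicate 2 lay among the LIG values (log2 change -0.19 ± 0.10, limma adjusted p = 0.716). TNS3 averaged 2.86 ± 0.44 and 2.69 ± 0.45 FPKM, and the zyxin relative LPP 10.9 ± 1.81 and 9.62 ± 2.88 FPKM. These, with ACTN1, ACTN4, FLNA, ZYX and PDLIM7, had limma adjusted p of at least 0.916.

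The spread of the members within each group went with gene length. TGF-β replicate 2 was below the mean of its other 2 replicates in 23 of the 30 tested members, LIG replicate 3 likewise in 23, and 20 members were low in both. Over all genes tested, 3224 of 10695 were low in both. Against those other replicates FLNA differed by -33.1% in the first of these libraries and by -19.96% in the second. LPP, the longest member at 26837 bases, differed by -25.3% and -44.2%. Across the 30 members, Spearman's rho between gene length and this log2 difference was -0.61 for TGF-β replicate 2 and -0.70 for LIG replicate 3. Over all genes tested it was -0.58 and -0.71. These are descriptions across genes that share the same libraries. The tested members had a median length of 6252 bases and all genes tested 4058 bases. With all genes tested split by length into 4 classes, the median log2 difference of LIG replicate 3 was 0.25 in the shortest class and -0.19 in the longest.

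**Figure D5:**
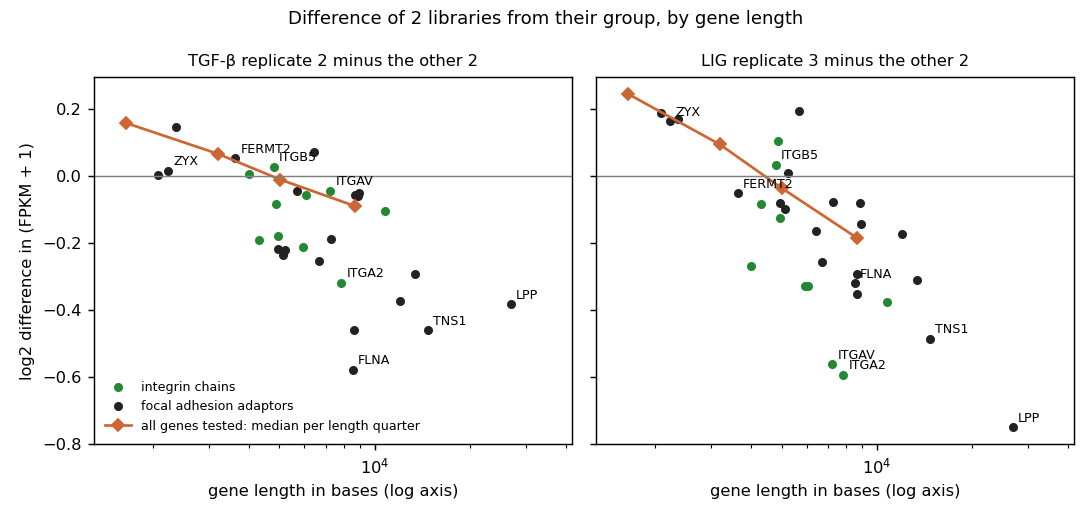
Log2 difference in (FPKM + 1) of TGF-β replicate 2 (left) and LIG replicate 3 (right) from the other replicates of their group, against gene length in bases (log axis). Points are the 30 tested members, and diamonds are medians of all genes tested in each of 4 length classes; long members such as LPP and TNS1 lie low in both panels, and ITGB5 and FERMT2 lie near 0.

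Fits that take these libraries or gene length into account gave member calls. Without both libraries that stand apart, 6 members passed, where 4.65% of all genes passed, 1.95% higher and 2.69% lower. ITGB5 and ITGA2 were higher and ITGA1, FERMT2, VCL and TNS1 lower. That fit keeps 2 libraries per group. The 2 left out were singled out by their values in these same data, so its small p-values partly reflect the spread removed. With each library adjusted for gene length, an alternative chosen after seeing the data, ITGB5 was higher (limma adjusted p = 0.0434) and ITGA1 and FERMT2 were lower (0.0193 and 0.00775), where 2.62% of all genes passed, 0.748% higher and 1.87% lower. Library quality weights called 11 members, where 17.7% of all genes passed, and summed FPKM as a term called 8, where 7.11% did. The weights were estimated from these same values. Summed FPKM was highest in the 2 libraries that stand apart, at 348518 and 362034, against 324022 to 328949 in the others. Neither fit is therefore independent of the fit that leaves those libraries out. Leaving out any 1 library gave 0 member calls. What sets the 2 libraries apart was not tested.

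Among 67 tested genes of other adhesion site proteins, 1 fell, 66 did not pass, and the median log2 change was -0.01, where 0.505% of all genes tested were called lower. The 1 was CAV1, which encodes the caveolae coat protein caveolin-1. CAV1 had 90.4, 93.8 and 85.6 FPKM with TGF-β and 67.0, 67.4 and 66.9 FPKM with LIG (log2 change -0.42 ± 0.06, limma adjusted p = 0.0313). It no longer passed when 1 library other than LIG replicate 3 was left out (limma adjusted p up to 0.214). NEXN, an actin-binding protein, had 7.81, 8.90 and 8.03 FPKM with TGF-β and 6.03, 5.96 and 6.05 FPKM with LIG (limma adjusted p = 0.0531). LPXN, a paxillin relative, had 13.5, 13.8 and 13.4 FPKM with TGF-β and 16.5, 17.5 and 18.6 FPKM with LIG (limma adjusted p = 0.0724). AJUBA, a LIM protein, averaged 18.7 ± 0.54 and 15.9 ± 0.18 FPKM (limma adjusted p = 0.235).

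Among 28 tested genes on a list of integrin ligands, 3 fell and 25 did not pass. The median log2 change was -0.15, with 22 below 0. Over all genes tested 0.505% were called lower, 4187 of 10695 were below 0 and the median was 0.03. The 3 were COL3A1, TGFB2 and THBS2. COL3A1, a ligand of the α1 and α2 chains' receptors, had 19.7, 18.2 and 22.9 FPKM with TGF-β and 11.8, 9.04 and 9.04 FPKM with LIG (limma adjusted p = 0.0144). TGFB2, which encodes an isoform of TGF-β, had 31.4, 28.5 and 29.5 FPKM with TGF-β and 18.5, 17.05 and 11.7 FPKM with LIG. It was listed with the other TGF-β isoforms, and whether integrins bind its product was not tested. THBS2, a matricellular thrombospondin, averaged 37.0 ± 0.54 and 26.6 ± 2.37 FPKM. THBS1 averaged 232 ± 12.1 and 151 ± 21.6 FPKM (limma adjusted p = 0.0600). COL3A1 no longer passed without TGF-β replicate 1 or 3 or without LIG replicate 2, with limma adjusted p up to 0.0766. TGFB2 and THBS2 each dropped out of the called genes when 1 library other than LIG replicate 3 was left out, with limma adjusted p up to 0.208 and 0.262.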

How the data were processed

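Polyadenylated RNA of 6 LX-2 libraries was measured, 3 per group, grouped by their titles. The deposited values are FPKM made by the authors, per the file headers. Without giving roles, the submitters' processing notes list HISAT2 2.1.0, fastp, DESeq2 and GRCh38.p13. The annotation, counting tool and use of strand are not given in the sources used here.

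Values of a gene are whole multiples of a step, from which gene length, library totals and fragments were recovered (100% of values above 0 within 0.01 of a whole number).

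Genes with a mean of at least 1 FPKM (10695) were tested with limma 3.58.1 in R 4.3.3 on log2(FPKM + 1), group only, with a mean-variance trend, two-sided, 4 residual degrees of freedom. An exact permutation test of 3 against 3 cannot give a p below 0.1. The fit was run on simulated data with noise drawn independently for each gene and library. That setting lacks the deviation shared by the libraries that stand apart, so it does not bear on calls that depend on them. Positions and overlaps came from GENCODE release 29, similar transcripts from BLAST 2.17.0 and upstream sequences from RefSeq.

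Every member was described; full statistics were given for up to 6 chains and 8 adaptors with the smallest adjusted p, values per library for those with the highest levels, and from the other lists genes that passed or up to 4 with the smallest adjusted p. The members and lists were chosen with earlier results of these data known. Alternatives were pseudocounts, filters, scalings, variance models, library weights, a replicate block, summed FPKM as a term, voom and leaving out libraries, and, added after seeing the data, a gene length adjustment. The pair of libraries left out together was singled out by its values in these data.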

Additional observations from a re-analysis of the deposited data

How the results depend on the processing

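Over the 21 alternatives, the 30 tested members gave 548 of 628 results with the same direction and call as with the settings of the report, 28 that passed and 52 with another sign, in 14 members whose reported log2 change was 0.19 or less in size.

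The number of genes called over all genes tested, 74, was 14 with no filter on low values, 1891 with library quality weights, 760 with summed FPKM as a term, 497 without both libraries that stand apart, 280 with the gene length adjustment, and 11 to 93 on leaving out 1 library. In the same order, integrin chains called (0 in the report) were 0, 3, 3, 3, 2 and 0, and adaptors called were 0, 8, 5, 3, 1 and 0. Other adhesion site genes called were 0, 21, 10, 11 and 5, with 0 to 1 on leaving out 1 library, and 2 with a mean FPKM of at least 5, TPM rescaling, quantile normalization, median centring or voom. Integrin ligands called were 0, 16, 15, 13 and 10, with 0 to 4 on leaving out 1 library. The median of the chains ranged from -0.07 to 0.07 and of the adaptors from -0.15 to -0.03, within the spread between replicates; the median of all genes moved by no more than 0.03 under another scaling.

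Whether the replicate numbers pair the samples could not be told. Deviations of same-numbered libraries correlated at 0.47, -0.57 and -0.34, and 1 of 6 libraries correlated best with its own number. Those of TGF-β replicate 2 and LIG replicate 3, the libraries that stand apart, correlated at 0.68. Deviations were taken from each group's mean, so this shared deviation raises the same-number value of replicate 1 and lowers those of replicates 2 and 3. The same-number values therefore cannot show whether the samples were paired. With the replicate number as a block, 22 genes were called over all, with 0 integrin chains, 0 adaptors, 0 other adhesion site genes and 1 ligand.

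The log2 change turned sign in 14 members. With TPM rescaling it was -0.0065 for ITGA3, -0.0020 for ITGA6, -0.0101 for TLN1 and -0.0096 for BCAR1, and with median centring -0.0069, -0.0028, -0.0108 and -0.0106 in that order. With quantile normalization it was -0.0123 for ITGA3, -0.0157 for TLN1 and -0.0291 for BCAR1. With library quality weights it was 0.0365 for ITGAV, 0.00016 for ITGB1, -0.0226 for TLN1, -0.0372 for BCAR1, -0.0722 for SRC and -0.0334 for FLNA. Without both libraries that stand apart it was -0.0033 for ITGA3, 0.0655 for ITGAV, 0.0042 for ITGB1, -0.0458 for TLN1, -0.0695 for BCAR1, -0.0466 for SRC, -0.0218 for ACTN4 and -0.0482 for FLNA. It was -0.00043 for ITGA3 with the gene length adjustment and -0.0062 for BCAR1 with summed FPKM as a term. On leaving out 1 library the range was -0.0455 to 0.0562 for ITGA3, -0.0382 to 0.1275 for ITGA6, -0.2022 to 0.0802 for ITGAV, -0.1382 to 0.0017 for ITGB1, -0.1431 to 0.1075 for TLN1, -0.0547 to 0.0495 for BCAR1, -0.0437 to 0.0739 for SRC, -0.0541 to 0.0733 for ACTN4, -0.1549 to 0.1445 for FLNA, -0.0735 to 0.0319 for ILK, -0.3168 to 0.0637 for LPP, -0.0781 to 0.0411 for PDLIM7, -0.1614 to 0.0395 for TNS3 and -0.0889 to 0.0088 for ZYX. The cause was not tested.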

Other observations

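The balance between related chains was computed as ratios of FPKM, with quantities chosen after the values were seen and no test made. ITGA2 over ITGA1, both collagen receptor chains, was 4.30, 3.79 and 4.50 with TGF-β (replicates 1, 2 and 3) and 6.96, 7.49 and 6.42 with LIG. ITGB5 over ITGB3, both vitronectin receptor chains, was 0.328, 0.405 and 0.353 with TGF-β and 0.444, 0.453 and 0.585 with LIG. FERMT2 over ILK was 2.08, 1.92 and 2.02 with TGF-β and 1.80, 1.73 and 1.51 with LIG. In these 3 ratios the groups did not overlap, and LIG replicate 3 lay on the same side as the other LIG libraries. No share over other gene pairs was computed, and 15.8% of single genes tested did not overlap. Against the other LIG libraries, LIG replicate 3 differed by -21.3% in ITGB3 and by 12.7% in ILK, which moves both ratios. In GENCODE, ITGB3 and ILK also share 51.6% and 68.1% of their exon bases with another gene, and the annotation that was counted is not given. FERMT2 over TLN1, in contrast, was 2.16, 3.08 and 2.13 with TGF-β and 1.92, 1.84 and 2.22 with LIG, with overlapping groups.

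Of 10 further integrin chains, mostly of leukocytes and platelets, 9 had a mean below 1 FPKM. ITGAE was the exception, at 5.51 ± 0.79 FPKM with TGF-β and 5.77 ± 1.20 with LIG (SD, n = 3; limma adjusted p = 0.979).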
